A study of Mus musculus with 6 samples.

Results

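The genes described here are 8 members of the insulin and insulin-like growth factor (IGF) receptor pathway, read in mouse islet cells with and without 14-3-3ζ in β cells. They are the receptors *Insr*, *Igf1r* and *Igf2r*, the receptor substrates *Irs1* and *Irs2*, the PI3-kinase regulatory subunit *Pik3r1*, and the kinases *Akt1* and *Akt2*. They were found by their symbols, and all 8 were among the 32285 genes of the count matrices. Islets came from 3 wild-type (WT) and 3 β14-3-3ζ–KO mice, with 1 single-cell library per mouse. The KO mice carried a floxed *Ywhaz* gene, which encodes 14-3-3ζ, and a Cre recombinase knocked into the *Ins1* locus (Ins1Cre Thor), on a C57BL/6J background. The WT controls were littermates that carried the same Cre, so the *Ins1* locus carried Cre in both genotypes. Mice were 12 to 14 weeks old, and islets were picked by hand, left overnight and dispersed with trypsin before dead cells were removed. The Cre acts in insulin-expressing cells, so the deletion was aimed at β cells.

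Insulin and the IGFs bind related receptor tyrosine kinases on the cell surface. The active receptor phosphorylates the insulin receptor substrate (IRS) proteins, which dock the p85 regulatory subunit of PI3-kinase. The lipid made by PI3-kinase brings Akt to the membrane, where it is switched on and goes on to phosphorylate FoxO factors, GSK3 and the regulators of mTORC1. In islets this pathway is known for its part in β cell growth, survival and compensation, with *Irs2* as the substrate most tied to β cell mass. The 14-3-3 proteins bind many phosphorylated targets of Akt, among them FoxO factors and Bad.

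The libraries held 74083947 to 98294915 unique molecular identifiers (UMIs), each standing for 1 captured transcript, and 25819 of 43445 barcodes passed the filters (1855 to 7646 per library). Any pair of libraries shared between 7 and 27 barcodes. Clusters were named from fixed markers as β cell–like (5987 cells), α (709), δ (569), *Ppy*-dominant (264), endothelial (1135), stellate (323), macrophage (499), B (3320) and T cell–like (2129), and every marker listed for a type was in over 10% of its cells except 1 of 4 in the *Ppy*-dominant cells. The cells of 3 hormone classes were assigned by their leading hormone, and 37 α, 67 δ and 16 *Ppy*-dominant cells lay within 1.5-fold of the cut. A ductal cell–like cluster (210 cells) and the unnamed clusters entered no comparison. *Ywhaz* matched the labels. Among the β cell–like cells it had 141, 160 and 152 CPM (UMI counts scaled to an equal library total) in WT replicates 1 to 3 and 17.6, 17.8 and 17.5 CPM in KO replicates 1 to 3, a log2 difference of −3.10 ± 0.07 (SE, edgeR FDR 5.87e-07). *Ins2* served as the gauge of free β cell RNA. In the other types it reached a mean of 1.65% (*Ppy*-dominant) to 7.27% (T cell–like) of UMIs, against 34.5% in β cell–like cells. CPM below were scaled by TMM across all types. The kit counts 1 UMI per transcript at its 3′ end, so no length correction applies, but capture efficiency can differ between genes.

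The type-1 IGF receptor *Igf1r* was the member that set β cell–like cells apart most. *Igf1r* (ENSMUSG00000005533) lies on the + strand of GRCm38 at chr7:67952827-68233668. β cell–like cells held 553, 682 and 555 CPM in WT replicates 1 to 3 and 678, 573 and 598 CPM in KO replicates 1 to 3. All 6 libraries lay above every library of the other types among the 9 named above, where the highest single value was 163 CPM, in stellate WT replicate 3. The mean was 607 ± 59.3 CPM (SD, n = 6) in β cell–like cells, 100.1 ± 9.14 CPM in δ, 51.7 ± 9.15 CPM in α, 70.3 ± 18.7 CPM in endothelial, 94.6 ± 38.7 CPM in stellate and 41.2 ± 12.5 CPM in macrophage cell–like cells. In B and T cell–like cells the means were 73.5 and 125 CPM, from as few as 4 UMIs in a library. Clusters outside the 9 types also held *Igf1r*, given here as CPM without hormone transcripts and without TMM. The ductal cell–like cluster, with 7 cells in KO replicate 2, had 230. An unnamed cluster of 1144 cells, with δ markers but insulin as leading hormone, had 599. On that scale β cell–like cells had 878.

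**Figure D1:**
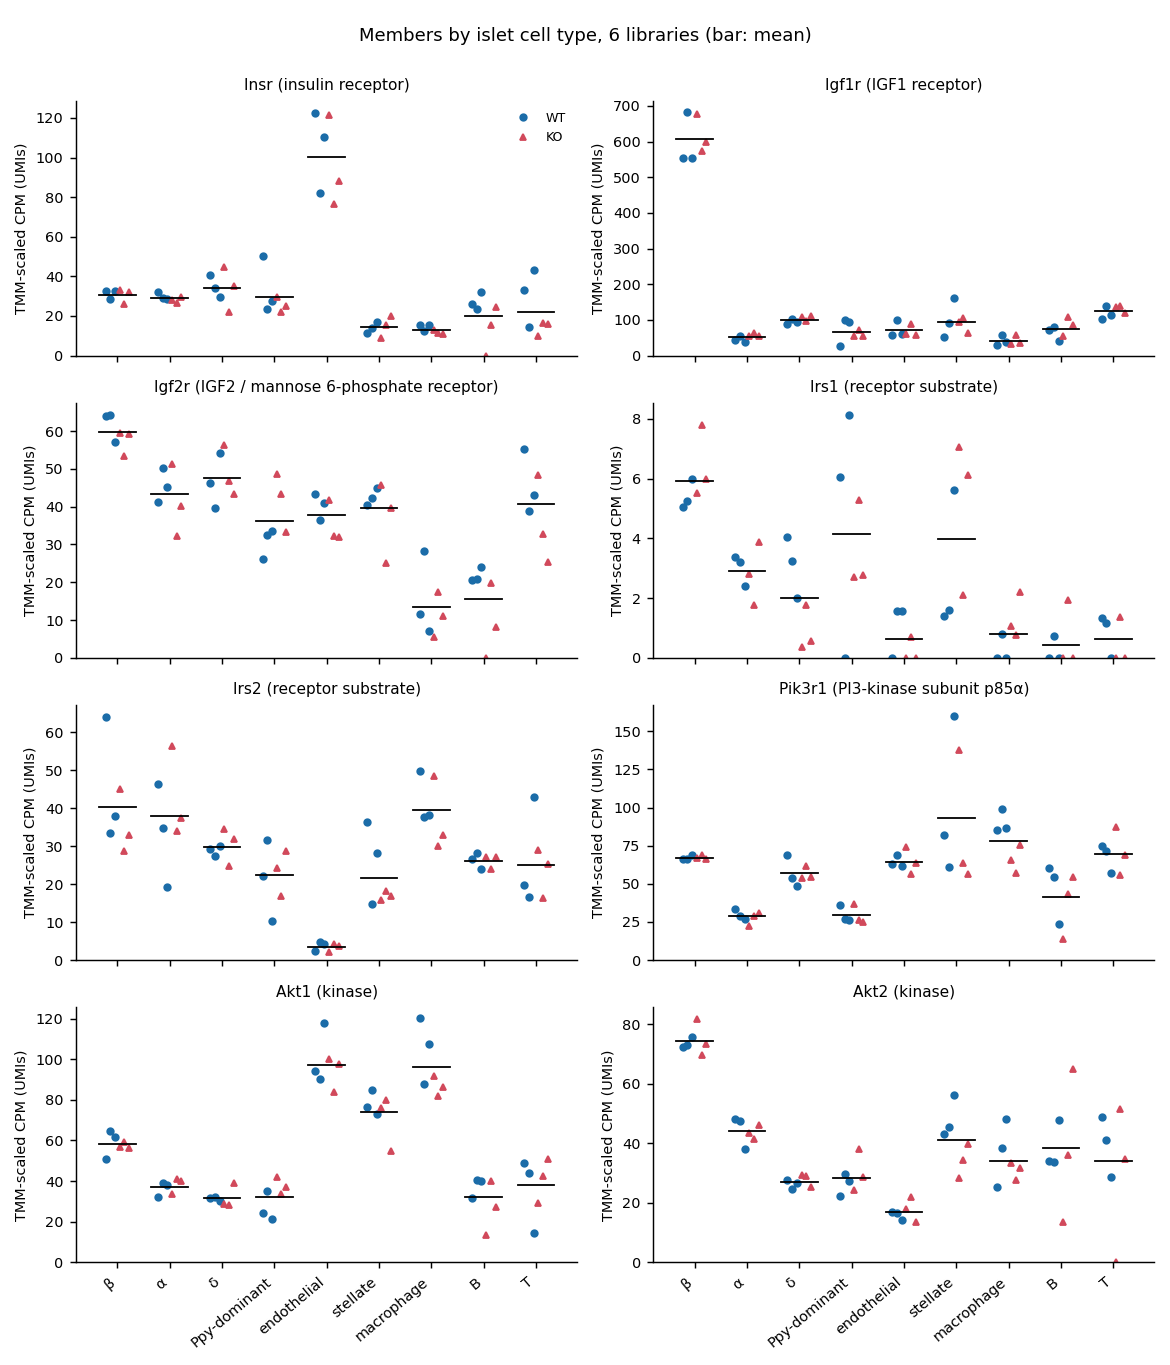
Levels of the 8 members (y axis, TMM-scaled CPM from UMIs, linear from 0) in 9 islet cell types (x axis). Each point is 1 of 6 libraries, with WT and KO marked apart, and the bar is their mean. *Igf1r* in β cell–like cells lies between 553 and 682 CPM, above the other types shown, while *Insr* and *Akt1* have their highest mean in endothelial cell–like cells.

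β cell RNA that is free in the cell suspension would carry *Igf1r* UMIs into other types. In CPM without TMM, 53.4 were measured in α cell–like cells, where β cell RNA in the amount set by *Ins2* would carry 27.7. The same values were 115 and 24.8 in δ, 85.6 and 56.5 in endothelial, 110 and 73.4 in stellate, and 39.2 and 35.3 in macrophage cell–like cells. In B cell–like cells 68.8 were measured and 93.6 would be carried, and in T cell–like cells 135 and 101. By this gauge the *Igf1r* level was thus close to the carried amount in macrophage and below it in B cell–like cells. A carried amount above the measured one shows that the gauge can overstate. A gauge from the ratio of *Igf1r* to *Ins2* in barcodes of shallow clusters, those with few UMIs, gave less in α cell–like cells, 20.9 against 27.7.

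The difference passed the test against all 5 types compared (edgeR quasi-likelihood test with the library as a term, called at a Benjamini-Hochberg FDR under 0.05 and over 2-fold). *Igf1r* was 11.8-fold higher in β than in α cell–like cells (log2 fold change 3.56 ± 0.15 SE, FDR 1.00e-27), 6.03-fold higher than in δ (2.59 ± 0.14), 8.73-fold higher than in endothelial (3.13 ± 0.14), 6.84-fold higher than in stellate (2.77 ± 0.15) and 14.7-fold higher than in macrophage cell–like cells (3.88 ± 0.16). Its order across the 9 types, without the ductal and unnamed clusters, was β, T, δ, stellate, B, endothelial, *Ppy*-dominant, α and macrophage. Of these neighbours, only β over T and T over δ held in 6 of 6 libraries, each with an exact two-sided sign-flip p of 0.03125, the smallest that 6 libraries allow, and a Benjamini-Hochberg value of 0.20 over the 64 neighbouring pairs of all members. The genes with the most similar profile of mean log2(CPM + 1) over the 9 types, among 6395 genes searched, were *Pcsk1* (r = 0.95), the prohormone convertase that cuts proinsulin, *Ppp1r1a* (0.94), a protein phosphatase inhibitor, and *Glp1r* (0.94), the GLP-1 receptor. These correlations describe 9 type means that share libraries and free RNA.

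The stretch before the *Igf1r* start is shown because this gene had the most β-biased level of the 8. It is taken from RefSeq (GRCm38.p6, chr7:67952007-67952256, + strand, 250 bases up to the base before the RefSeq start, 570 bases upstream of the GENCODE start). Capitals mark GGGCGG, the GC box, searched on both strands, which stood in 2 places that do not overlap.
Igf1r: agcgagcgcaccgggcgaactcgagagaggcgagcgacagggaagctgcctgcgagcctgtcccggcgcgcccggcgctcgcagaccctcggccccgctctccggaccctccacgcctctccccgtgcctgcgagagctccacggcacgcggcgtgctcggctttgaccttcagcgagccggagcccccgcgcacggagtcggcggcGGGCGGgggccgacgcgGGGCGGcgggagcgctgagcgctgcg
The window was 77.6% G and C, against a median of 52.4% over 32851 RefSeq promoters of that length. GGGCGG occurred in 32.7% of them. The other letters searched, spelled out with the substrate genes below, were not in this window.

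The insulin receptor gene *Insr* (ENSMUSG00000005534, chr8:3122061-3279617, − strand) was highest in endothelial and not in β cell–like cells. Its level in endothelial cell–like cells was 123, 82.3 and 110.2 CPM in WT replicates 1 to 3 and 121, 76.4 and 88.2 CPM in KO replicates 1 to 3. The β cell–like cells had 32.8, 28.4 and 32.4 CPM in WT and 32.9, 25.9 and 32.1 CPM in KO. Every endothelial library lay above every β library, and *Insr* was 3.22-fold lower in β than in endothelial cell–like cells (log2 fold change −1.69 ± 0.10 SE, FDR 1.83e-22). The α (29.0 ± 1.80 CPM, SD, n = 6) and δ cell–like cells (34.3 ± 8.05 CPM) had means close to that of β cell–like cells on the TMM scale. The differences were 0.07 ± 0.11 (95% interval −0.15 to 0.29, FDR 0.62) and −0.17 ± 0.11 (−0.39 to 0.04, FDR 0.20) on the log2 scale. Without TMM they were −0.35 (FDR 0.0096) and −0.75 (FDR 2.09e-07), both under the 2-fold limit, so whether *Insr* was lower in β than in α and δ cell–like cells depended on the scaling. *Insr* was 2.07-fold higher in β than in stellate (14.3 ± 3.97 CPM) and 2.34-fold higher than in macrophage cell–like cells (13.2 ± 2.04 CPM), with FDR of 1.05e-07 and 8.29e-10. The stellate call rests close to the 2-fold limit (log2 fold change 1.05 ± 0.16), and it was lost without WT replicate 1 (0.98), WT replicate 2 (1.00) or KO replicate 1 (0.90). In the order endothelial, δ, β, *Ppy*-dominant, α, T, B, stellate and macrophage, only endothelial over δ held in 6 of 6 libraries. The genes nearest to it in profile were *Pdzd8* (r = 0.97), *Ppp1r13b* (0.96) and *Ccny* (0.96). In β cell–like cells the 2 receptors were thus counted at 607 CPM for *Igf1r* and 30.8 CPM for *Insr*, a comparison of captured transcripts and not of protein.

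*Igf2r* (ENSMUSG00000023830, chr17:12682406-12769664, − strand) encodes the cation-independent mannose 6-phosphate receptor, which takes up IGF2 for degradation and has no kinase. Its levels were more even. β cell–like cells had 64.1, 64.3 and 57.2 CPM in WT and 59.5, 53.4 and 59.2 CPM in KO, with a mean of 59.6 ± 4.13 CPM (SD, n = 6). Means in the other islet cells, stellate and endothelial cells lay from 36.3 to 47.7 CPM. Macrophage cell–like cells were lower, at 13.5 ± 8.35 CPM, and so were B cell–like cells, at 15.6 ± 9.38 CPM, which were not tested against β. The macrophage contrast was called (4.09-fold higher in β, log2 fold change 2.03 ± 0.17 SE, FDR 2.10e-15). The other 4 contrasts lay between 0.33 and 0.66 on the log2 scale, under the 2-fold limit (−0.25 for δ and −0.0035 for endothelial without TMM). An antisense gene, *Airn*, overlaps *Igf2r* on the opposite strand, with no overlap between their annotated exons. *Airn* had 1867 UMIs in β cell–like cells, against 8911 for *Igf2r*. Nearest in profile were *Rora* (r = 0.98), *Zbtb11* (0.95) and *Zbtb41* (0.95).

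The receptor substrates differed widely in level. *Irs1* (ENSMUSG00000055980, chr1:82233101-82291416, − strand) was the least captured member, with 872 UMIs over all β cell–like cells, against 6123 for *Irs2* (ENSMUSG00000038894, chr8:10984681-11008458, − strand). *Irs1* was at 5.05, 5.25 and 5.99 CPM in WT and 5.53, 7.80 and 5.99 CPM in the KO libraries, both of β cell–like cells. Its mean was 5.93 ± 0.99 CPM in β, 4.16 ± 2.90 CPM in *Ppy*-dominant, 3.98 ± 2.55 CPM in stellate, 2.91 ± 0.75 CPM in α and 1.997 ± 1.45 CPM in δ cell–like cells (SD, n = 6). All other means were under 0.81 CPM, and types other than β held 36 *Irs1* UMIs at most over the 6 libraries. *Irs1* did not pass the filter on low counts, so it has no test in the main comparisons, and differences between types other than β were not detectable at this depth. *Ahcyl1*, *Golt1b* and *Eprs* were nearest to *Irs1* in profile (r = 0.95 for each).

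*Irs2* was spread over the endocrine and immune cells. β cell–like cells had 64.0, 33.5 and 37.8 CPM in WT replicates 1 to 3 and 44.9, 28.7 and 32.8 CPM in KO replicates 1 to 3. WT replicate 1 stood above the rest. The means were 40.3 ± 12.9 CPM in β, 39.5 ± 8.08 CPM in macrophage, 38.0 ± 12.5 CPM in α, 29.6 ± 3.40 CPM in δ and 21.7 ± 8.60 CPM in stellate cell–like cells. None of those differences from β passed the 2-fold call. Their log2 values, β minus the other type, were 0.02 for macrophage, 0.07 for α, 0.43 for δ and 0.96 for stellate, and without TMM the first 3 were negative (−0.31, −0.36 and −0.16). Endothelial cell–like cells were the exception, with 2.28, 4.70 and 4.20 CPM in WT and 2.14, 4.11 and 3.68 CPM in KO. The endothelial levels came from 48 UMIs in all, and no endothelial library reached the lowest library of any other type. *Irs2* was 11.0-fold higher in β than in endothelial cell–like cells (log2 fold change 3.46 ± 0.21 SE, FDR 1.02e-21). In CPM without TMM, 4.30 were counted there, where free β cell RNA would carry 3.37. Endothelial cells thus held the highest *Insr* and the lowest *Irs2* of the 9 types. *Bola3* (r = 0.99), *Cpsf3* (0.94) and *Dpy30* (0.94) were nearest to *Irs2* in profile.

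The promoters of the substrate genes are shown because both hold an E-box beside a forkhead core. Both windows are from RefSeq (GRCm38.p6, 250 bases up to the base before the RefSeq start, − strand, written 5′ to 3′), whose start lies 23 bases upstream of GENCODE's for *Irs1* and 471 for *Irs2*. They are chr1:82291440-82291689 for *Irs1* and chr8:11008930-11009179 for *Irs2*. Capitals mark CACGTG (an E-box), GGGCGG (the GC box), TGACG (the core of a cAMP response element) and TGTTT (the forkhead core), searched on both strands.
Irs1: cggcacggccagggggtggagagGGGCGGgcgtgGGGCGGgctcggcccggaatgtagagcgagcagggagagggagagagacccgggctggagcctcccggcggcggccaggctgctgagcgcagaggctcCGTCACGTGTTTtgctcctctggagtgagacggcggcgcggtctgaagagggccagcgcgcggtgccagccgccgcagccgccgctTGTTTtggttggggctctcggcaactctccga
Irs2: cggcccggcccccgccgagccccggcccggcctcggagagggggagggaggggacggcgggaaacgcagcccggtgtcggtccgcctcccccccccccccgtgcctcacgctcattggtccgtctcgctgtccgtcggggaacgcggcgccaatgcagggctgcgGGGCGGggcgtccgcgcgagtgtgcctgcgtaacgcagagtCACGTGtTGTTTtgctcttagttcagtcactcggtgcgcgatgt
In *Irs1* the cAMP element core (on the other strand, CGTCA), the E-box and the forkhead core overlap in 1 run of capitals, and the forkhead core occurs again further on. In *Irs2* the E-box and the forkhead core stand with 1 base between them. The E-box occurred in 6.02% of all RefSeq promoters of that length, the cAMP element core in 17.8% and the forkhead core in 46.4%. These are matches of letters, with no measurement of binding. Genes on the opposite strand overlap exons of both, *Gm9747* at *Irs1* with 3 UMIs in β cell–like cells and *9530052E02Rik* at *Irs2* with 133.

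*Pik3r1* (ENSMUSG00000041417, chr13:101680563-101768217, − strand) encodes the p85α subunit that couples IRS proteins to PI3-kinase, and its β cell level varied least. The values were 66.2, 66.2 and 68.8 CPM in WT and 66.8, 68.7 and 66.1 CPM in KO, with a mean of 67.1 ± 1.27 CPM (SD, n = 6). Stellate (93.5 ± 44.2 CPM), macrophage (78.1 ± 15.1 CPM), endothelial (64.6 ± 6.29 CPM) and δ cell–like cells (56.9 ± 7.10 CPM) were within 2-fold of it, and without TMM *Pik3r1* was lower in β than in δ (−0.34), endothelial (−0.60), macrophage (−0.53) and stellate cell–like cells (−0.94 on the log2 scale, FDR 0.026 at most). The α cell–like cells were lower, at 28.7 ± 3.75 CPM, and so were *Ppy*-dominant cells, at 29.6 ± 5.28 CPM, which were not tested against β. The difference from α was called (2.33-fold higher in β, log2 fold change 1.22 ± 0.14 SE, FDR 5.10e-11). No neighbouring pair in its order held in all 6 libraries. *Man1a2* (r = 0.91), *Emc4* (0.89) and *Tmem9b* (0.89) were nearest to it in profile.

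The Akt kinases differed in their order across types. *Akt1* (ENSMUSG00000001729, chr12:112653821-112674884, − strand), the isoform tied to growth and survival, was highest in endothelial (97.3 ± 11.6 CPM) and macrophage cell–like cells (96.0 ± 14.8 CPM). β cell–like cells had 50.9, 64.9 and 61.8 CPM in WT and 56.8, 59.3 and 56.2 CPM in KO, and every endothelial and macrophage library lay above every β library. The log2 fold changes, β over the other type, were −0.73 ± 0.09 SE for endothelial, −0.71 ± 0.10 for macrophage, −0.38 ± 0.11 for stellate, 0.63 ± 0.10 for α and 0.88 ± 0.11 for δ. All 5 had an FDR under 0.05 (0.0019 at most), and none reached 2-fold. Without TMM the values were 0.20 for α (FDR 0.11), 0.30 for δ and −0.97 for stellate cell–like cells.

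*Akt2* (ENSMUSG00000004056, chr7:27591552-27640826, + strand), the isoform tied to insulin's control of glucose handling, had its highest mean in β cell–like cells. Its libraries had 72.4, 73.2 and 75.9 CPM in WT and 81.7, 69.6 and 73.4 CPM in KO. Means elsewhere were 44.1 ± 3.89 CPM in α, 41.2 ± 9.64 CPM in stellate, 34.2 ± 8.22 CPM in macrophage, 27.1 ± 1.94 CPM in δ and 16.8 ± 3.02 CPM in endothelial cell–like cells. *Akt2* was called higher in β than in δ (2.74-fold, log2 fold change 1.45 ± 0.12 SE), endothelial (4.34-fold, 2.12 ± 0.13) and macrophage cell–like cells (2.22-fold, 1.15 ± 0.14), with FDR of 6.75e-11 at most. In α and stellate cell–like cells the difference was 0.76 and 0.88 on the log2 scale, short of 2-fold. β over α and δ over endothelial held in 6 of 6 libraries. Within endothelial cell–like cells *Akt1* was thus counted at 97.3 and *Akt2* at 16.8 CPM, and in β cell–like cells at 58.3 and 74.3 CPM. Nearest in profile were *Arf1* (r = 0.97), *Kif1c* (0.97) and *Ctdnep1* (0.97) for *Akt1*, and *Ccng1* (0.95), *Apopt1* (0.93) and *Tmem147* (0.91) for *Akt2*.

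**Figure D2:**
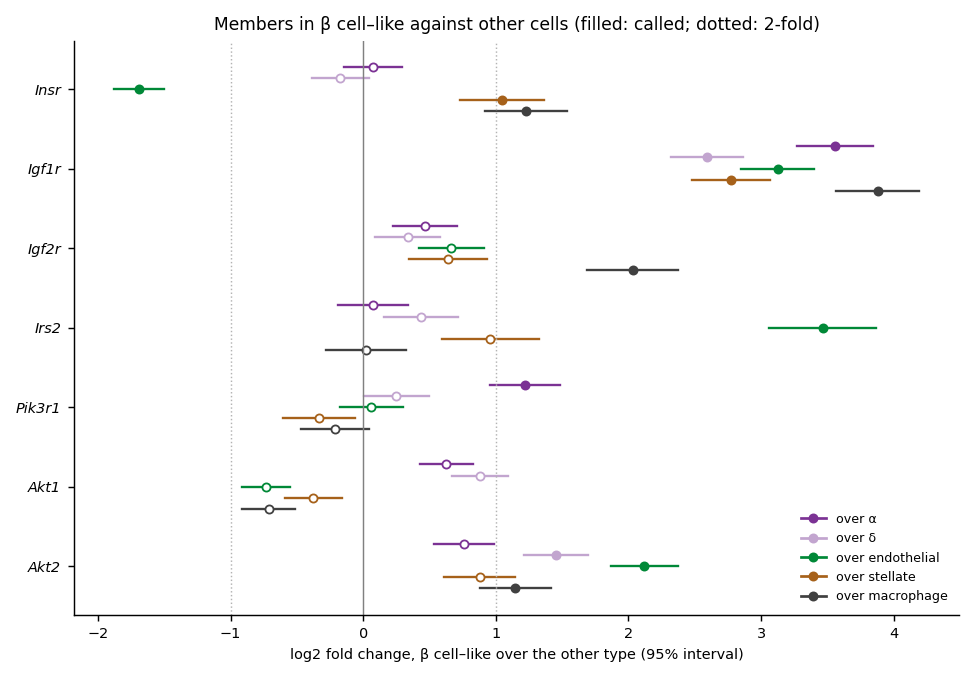
Log2 fold change of each tested member in β cell–like cells over 5 other types (x axis, with 95% intervals), 1 row per gene, from edgeR with the library as a term over 6 libraries. Filled points were called (FDR under 0.05 and over 2-fold), and dotted lines mark 2-fold. *Igf1r* lies between 2.59 and 3.88 against every type, and *Insr* against endothelial cells (−1.69) is the only contrast called lower in β cells with TMM scaling.

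Counted together, 7 members were tested between types. Against α, 2 of 7 were called higher and 0 lower, where 8.16% and 7.86% of all 12385 genes tested were called higher and lower. Against δ the counts were 2 and 0 (5.7% and 9.45% of all genes). Against endothelial cell–like cells 3 were higher and 1 lower (25.6% and 20.5%), against stellate 2 and 0 (21.3% and 21.4%), and against macrophage 4 and 0 (26.4% and 20.8%). The median log2 fold change of the members was 0.63, 0.43, 0.66, 0.88 and 1.15 in that order, beside 0.03, 0.02, 0.09, 0.10 and 0.12 over all genes. With 7 genes, 1 call moves these shares by much, and nothing is read from them. TMM moved these comparisons. Without it the median over all genes was −0.40, −0.56, −0.57, −0.49 and −0.19, and the share of calls that were higher in β fell from 51.0% to 25.4% (α), 37.6% to 11.8% (δ), 55.5% to 32.5% (endothelial), 49.8% to 27.0% (stellate) and 55.9% to 44.8% (macrophage). Under that scaling *Igf1r* was still called higher against all 5 types (2.003 to 3.56), *Insr* and *Akt1* were called lower than in endothelial cell–like cells (−2.35 and −1.40), and *Akt1* also lower than in macrophage cell–like cells (−1.03). *Pik3r1* against α (0.79), *Akt2* against δ (0.87) and macrophage (0.83), and *Insr* against stellate (0.46) and macrophage cell–like cells (0.91) lost the 2-fold call.

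*Igf1* and the binding proteins around these receptors were highest in different cells. Of 64 other genes listed for the pathway, 59 were tested. The ligand gene *Igf2* was not among them, and the ligand genes *Ins1* and *Ins2* define the β cells. *Igf1* had 98.9 ± 39.96 CPM in macrophage cell–like cells, 15.0 ± 23.0 CPM in stellate, 3.56 ± 2.54 CPM in endothelial and 0.0587 ± 0.0431 CPM in β cell–like cells (SD, n = 6). The log2 fold change of *Igf1*, β over macrophage, was −10.3. The IGF-binding proteins, secreted carriers that hold IGFs away from or near their receptor, were mostly vascular and stromal, and 4 of 5 tested genes of this group were called lower in β than in endothelial and in stellate cell–like cells. *Igfbp3* was at 2962 ± 806 CPM in endothelial and 1.67 CPM in β cell–like cells (a log2 difference of −10.8). *Igfbp5* was at 2994 ± 2078 CPM and *Igfbp4* at 137 ± 106 CPM in stellate cell–like cells. *Igfbp7* was at 1601 ± 214 CPM in endothelial, 1383 ± 265 CPM in stellate, 357 ± 34.1 CPM in δ, 232 ± 39.1 CPM in α and 56.6 ± 8.15 CPM in β cell–like cells. Against this trend *Igfals*, the acid-labile subunit of the circulating IGF complex, was higher in β cell–like cells than in all 5 types (35.6 ± 5.46 CPM, log2 fold changes 1.504 to 3.55).

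**Figure D3:**
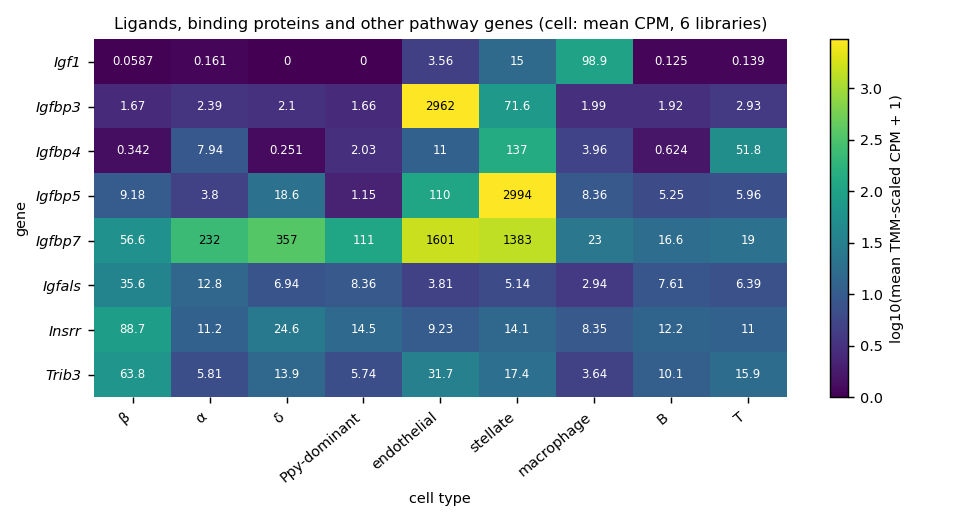
Mean level of other pathway genes named in the text (rows) in 9 cell types (columns). The number in each cell is the mean TMM-scaled CPM over 6 libraries, and the shading is its log10 after adding 1. *Igf1* is highest in macrophage cell–like cells (98.9 CPM), *Igfbp3* in endothelial and *Igfbp5* in stellate cell–like cells.

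Over the whole list, 10 genes were called higher and 7 lower in β than in α cell–like cells, 8 and 7 against δ, 11 and 15 against endothelial, 12 and 14 against stellate, and 20 and 12 against macrophage cell–like cells, of 59 tested. *Ins1* and *Ins2*, which define β cells, are 2 of the genes counted as higher each time. The shares over all genes are those given for the members. *Insrr*, an orphan relative of the insulin receptor that senses alkaline pH, was higher in β than in all 5 types, with 88.7 ± 12.2 CPM in β and 11.2 ± 2.67 CPM in α cell–like cells (log2 fold change 2.98). *Trib3*, a pseudokinase known to bind Akt, was at 63.8 ± 17.7 CPM in β and 5.81 ± 2.18 CPM in α cell–like cells (3.30). *Gab1*, an adaptor for receptor tyrosine kinases, was lower in β than in all 5 types, with 1.23 ± 0.24 CPM in β and 10.9 ± 4.07 CPM in α cell–like cells (−3.14). B and T cell–like cells, which were not tested, had less *Gab1* still (0.459 and 0.343 CPM). Among lipid phosphatases, *Inpp5d*, which encodes the blood-cell enzyme SHIP1, was at 187 ± 20.7 CPM in macrophage, 155 ± 22.8 CPM in endothelial and 0.334 ± 0.221 CPM in β cell–like cells. The catalytic subunit gene *Pik3cd* was at 61.2 ± 26.2 CPM in T, 42.7 ± 15.6 CPM in B, 36.2 ± 5.25 CPM in macrophage and 0.450 ± 0.161 CPM in β cell–like cells. *Grb14*, an adaptor that restrains the insulin receptor, was at 64.5 ± 14.1 CPM in *Ppy*-dominant, 53.2 ± 5.57 CPM in δ, 23.4 ± 1.55 CPM in β and 3.11 ± 1.49 CPM in endothelial cell–like cells. The *Ins1* and *Ins2* contrasts define the cells and are read here as free RNA only.

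β cell–like cells fell into 3 clusters, in which the members differed. These clusters came from the same transcripts, so the values are a description with no test. Values in this paragraph are CPM after hormone transcripts were left out, without TMM. The larger cluster (3563 cells, median 5240 genes per cell) and a cluster led by *Ttyh1* (1775 cells) had *Igf1r* at 892 and 994, *Insr* at 52.0 and 36.4 and *Irs2* at 56.8 and 57.1. A gene-poor cluster (649 cells, median 2493 genes) had *Igf1r* at 155, *Insr* at 13.1, *Igf2r* at 28.7, *Pik3r1* at 59.9, *Akt1* at 42.5 and *Akt2* at 41.7, all below the other clusters. *Irs2*, summed over the libraries, went the other way, at 97.7. In that cluster insulin transcripts were 70.4% of UMIs. *Igf1r* varied widely there, at 109, 134 and 149 in WT replicates 1 to 3 and 176, 248 and 398 in KO replicates 1 to 3. WT replicate 1 gave 321 of its 943 UMIs, and genotypes were not tested within clusters. *Irs2* there was 92.9, 125 and 128 in WT replicates 1 to 3 and 75.9, 43.5 and 119.6 in KO replicates 1 to 3, the last 3 from 83, 10 and 52 UMIs. Each value lay above the larger cluster of the same library, by little in WT replicate 1 (88.0) and KO replicate 2 (40.3). In WT replicate 1, which gave 274 of the 595 *Irs2* UMIs of the gene-poor cluster, the *Ttyh1* cluster was higher still (95.8).

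**Figure D4:**
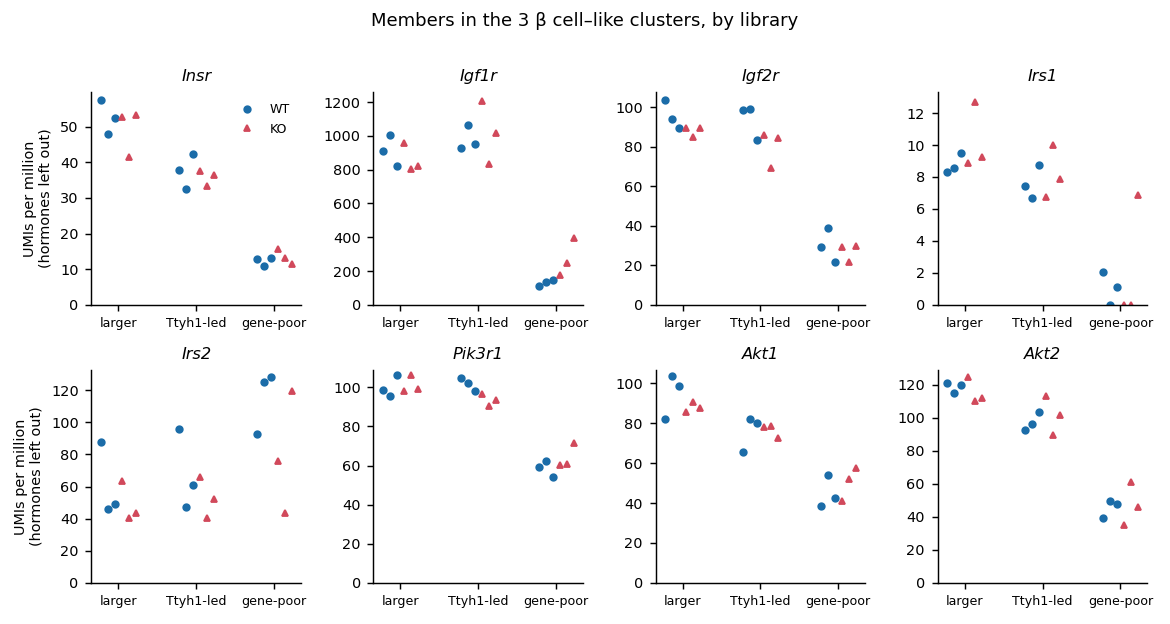
Levels of the members (y axis, CPM with hormone transcripts left out) in the 3 β cell–like clusters (x axis), 1 point per library, WT and KO marked apart. Summed over the libraries, *Igf1r* falls from about 892 and 994 to 155 in the gene-poor cluster, while *Irs2* is at 97.7 there against 56.8 and 57.1.

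The question of the design was what the loss of 14-3-3ζ changed, and for these genes no difference passed the test in β cell–like cells. Dropping the KO cells in which *Ywhaz* was still detected kept 736, 696 and 626 cells in KO replicates 1 to 3 beside 816, 889 and 939 WT cells. No WT cell was dropped, and a KO cell can also lack a *Ywhaz* UMI because few of its transcripts were counted. Of 9332 genes tested, 1 passed the thresholds (FDR below 0.05, a log2 change larger than 0.1 in size; 0.0107%), and it was *Ywhaz* itself, whose call was fixed by that choice of cells. The labels do not say that replicate numbers pair the libraries. A block on that number was tried because same-numbered libraries deviated together in these same data. With it 13 genes were called (0.139%), none of them a member. Without the block, none of the 7 tested members was called. 0 of the 7 had an unadjusted edgeR p under 0.05, and DESeq2 called none of them. Over all genes 455 had an unadjusted p under 0.05. None of the members had WT and KO values that did not overlap, while 11.4% of all genes did.

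*Igf1r* was at 420.3, 515 and 421 CPM in WT and 489, 451 and 446 CPM in KO (scaled within β cell–like cells), and the groups overlapped. Its log2 fold change, KO over WT, was 0.03 ± 0.10 SE, with a 95% interval of −0.17 to 0.23. *Insr* was at 24.9, 21.4 and 24.6 CPM in WT and 24.9, 19.997 and 24.4 CPM in KO (−0.03 ± 0.11, interval −0.24 to 0.18). *Igf2r* went from a mean of 46.9 to 44.0 CPM (−0.09 ± 0.08). *Pik3r1* had 50.9 ± 1.23 CPM in WT and 50.5 ± 1.45 CPM in KO (SD, n = 3), with a log2 fold change of −0.01 ± 0.06 and an interval of −0.14 to 0.12. *Akt1* (−0.02 ± 0.09) and *Akt2* (0.02 ± 0.08) had intervals of −0.21 to 0.16 and −0.13 to 0.17. Among these 6 genes the intervals reached −0.24 (*Insr* and *Igf2r*) at the low end and 0.23 (*Igf1r*) at the high end. They use a normal approximation, which is narrow for 3 mice per genotype. *Irs1*, untested by the filter, was at 0.27 ± 0.17 when no filter was used (edgeR FDR 0.89).

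**Figure D5:**
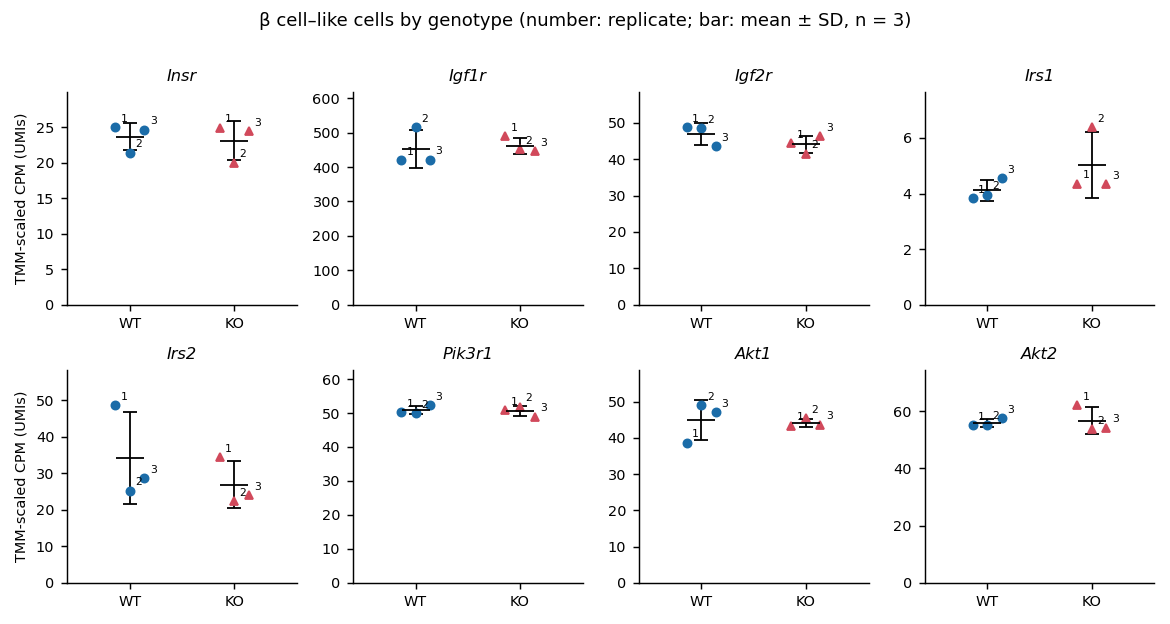
Level of each member in β cell–like cells by genotype (y axis, CPM scaled within this type, from 0). Numbered points are the 3 replicates of WT and KO, and the bars are the mean ± SD (n = 3). The groups overlap for every member, and *Irs2* has its widest spread in WT, from 25.3 to 48.7 CPM.

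*Irs2* had the widest spread. It was at 48.7, 25.3 and 28.7 CPM in WT replicates 1 to 3 and 34.4, 22.3 and 24.0 CPM in KO replicates 1 to 3. The log2 fold change was −0.34 ± 0.25 SE (95% interval −0.83 to 0.15, FDR 0.88), and it was 0.0016 without WT replicate 1. *Irs2* was lower in KO than in the WT library of the same number in 3 of 3 pairs, and with the replicate block the value was −0.33 ± 0.08 (edgeR unadjusted p = 0.0014, FDR 0.14), not called. The replicates numbered 1 were the highest of their genotype, and together the 2 highest libraries. The same held in α and macrophage cell–like cells but not in the 6 other types. WT replicate 1 also held the largest share of the gene-poor cluster, 28.6% of its β cell–like cells against 4.37% to 11.3% in the other libraries. With that cluster left out, *Irs2* in WT replicate 1 was 89.8 CPM without hormone transcripts, against 40.8 to 64.3 in the others.

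Among the 64 other pathway genes, 46 were tested in β cell–like cells and 0 were called by edgeR, and 4 of the 46 had an unadjusted p under 0.05, beside 4.88% of all genes. The 5 with the lowest p were *Ins1* (log2 fold change −0.62, FDR 0.88), which carries the Cre in both genotypes, and *Shc1*, *Insrr*, *Bad* and *Eif4ebp2* (0.24, 0.25, 0.21 and −0.14, with an FDR of 0.88 each). *Insrr* was at 61.2, 57.4 and 67.3 CPM in WT and 80.4, 64.4 and 75.5 CPM in KO, with overlapping groups, and it was higher in KO in 3 of 3 same-numbered pairs.

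In the cell types where *Ywhaz* was not targeted, no gene of all tested was called in α (0% of 8776 genes), δ (0% of 9385), endothelial (0% of 7072) or macrophage cell–like cells (0% of 7212). Unadjusted p-values under 0.05 numbered 311, 308, 215 and 444, DESeq2 called 6 genes over the 4 types, and with the replicate block edgeR called 57. These were 0.0114% of genes in α, 0.107% in δ, 0.0424% in endothelial and 0.596% in macrophage cell–like cells, and no member was among them. Stellate, *Ppy*-dominant, B and T cell–like cells had fewer than 20 cells in a library and were not tested for genotype on their own. The lowest p among members was for *Pik3r1* in macrophage cell–like cells, at 80.5, 94.6 and 82.0 CPM in WT and 62.2, 55.3 and 71.8 CPM in KO (log2 fold change −0.46 ± 0.15 SE, edgeR FDR 0.80). The groups did not overlap, as for 12% of all genes tested in that type. *Igf1r* in α cell–like cells was at 45.3, 55.8 and 40.1 CPM in WT and 56.5, 65.0 and 56.9 CPM in KO (0.34 ± 0.14, FDR 1), again without overlap, as for 9.53% of all genes there. The gauge of free RNA was higher in KO in 3 of 3 same-numbered pairs of α cell–like cells, as *Igf1r* was, though its groups overlapped, and *Ins2* was 0.793%, 2.35% and 1.38% of UMIs in WT and 1.27%, 4.21% and 2.12% in KO, and the *Igf1r* it would carry was 7.48, 42.5 and 20.6 CPM in WT and 19.2, 46.5 and 30.2 in KO. Its part in the *Igf1r* difference was not tested. *Irs1* in δ cell–like cells, left untested by the filter, was at 4.58, 3.73 and 2.33 CPM in WT and 0.428, 2.07 and 0.639 CPM in KO. These groups also did not overlap, but they rest on 11, 7 and 3 UMIs in WT and 1, 2 and 1 in KO. The share of all genes without overlap was not counted in δ cell–like cells.

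The KO effect itself was compared between β and 5 other types by an interaction term on all 12385 genes. KO cells with *Ywhaz* UMIs were kept here, giving 1245, 1007 and 1091 β cell–like cells in KO replicates 1 to 3. The interaction was called in at least 1 type for 3 genes (0.0242%), *Jchain*, *Maoa* and *Ywhaz*, and for no member. These gave 8 calls over the 5 types, and 15 without WT replicate 2. Stellate cell–like cells, with few cells per library, were 1 of the 5 types and gave 2 of the 8 calls. The lowest p was for *Irs2* in α against β cell–like cells, where the effects differed by 0.71 ± 0.27 SE on the log2 scale (edgeR unadjusted p = 0.0129, FDR 1).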

How the data were processed

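Single-cell 3′ RNA-seq of mouse islets (WT and β14-3-3ζ–KO, 3 libraries of each) was analysed from 1 UMI count matrix per library. The authors deposited raw UMI counts per gene and barcode, made with Cell Ranger 6.0.2 against mm10 per the submitters' processing notes, which also name Seurat. Whether counting used strand is not given in the sources used here, so overlapping antisense genes are named beside the members. Barcodes with under 500 genes or over 10% mitochondrial UMIs and called doublets were left out (scanpy 1.11.5). Doublets were the 12 that the automatic threshold marked in WT replicate 1, and the highest scores (0.8% per 1000 barcodes) elsewhere. Cells were clustered (2000 variable genes, 30 components, Leiden resolution 1) and named from fixed markers, and the numerical naming limits were set after the clusters were seen. UMIs were summed per library and type and tested in R 4.3.3 with edgeR 4.0.16 (TMM, quasi-likelihood, Benjamini-Hochberg). Genotype tests used genes in over 15% of cells of either genotype and types in which each library had 20 cells or more. Type tests asked for 10. Mice are the replicates, and cells are not.

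The members and lists were chosen with earlier results of these data known. Named genes were the 8 members, *Ywhaz*, at most the 10 listed pathway genes with the largest fold per comparison (a few more called genes were named after their values were seen), the 5 with the lowest p in β cell–like cells, and the 3 most similar in profile (mean CPM of at least 20). The free RNA gauge scaled each library's β cell profile to the *Ins2* of another type. Same-numbered WT and KO libraries deviated together (r = 0.54, 0.48 and 0.22), so a replicate block was tried. The labels do not state a pairing. DESeq2 1.42.0, other scalings, filters, cluster resolution, doublet handling and libraries left out were the other alternatives, and tests were tried on simulated data. Gene positions are from GENCODE (GRCm38), and 99.6% of gene identifiers matched. Promoters are from RefSeq (7 of 8 members matched, *Insr* being the other). Intervals on counts cover counting error only. Those on fold changes use a normal approximation, which is narrow for few libraries.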

Additional observations from a re-analysis of the deposited data

Results flagged for a closer look

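Summed over the libraries, *Pik3r1* was higher in 2 unnamed clusters, which entered no comparison, than in any type compared. Values are CPM without hormone transcripts and without TMM, with 95% Poisson intervals that cover counting error only. The first cluster (284 cells, 2 to 150 per library) was led by *Apol7c*, *Ccl22*, *Serpinb6b* and *Ccr7*, a chemokine receptor of migrating immune cells. It had *Pik3r1* at 318 (295 to 343, from 685 UMIs), and single libraries lay between 233 and 468. The second cluster (284 cells, 30 to 97 per library) was led by *Igfbp5* and *Mgp*, with *Pdgfrb*, *Cspg4* and *Rgs5*, genes of cells that wrap vessels, among its leading genes. It also carried all 7 endothelial markers listed, beside stellate markers. Its median was 5139 genes per cell, against 2973 in endothelial and 3324 in stellate cell–like cells. Whether its barcodes mix cell types was not tested. This second cluster had *Pik3r1* at 189 (178 to 200.1, from 1099 UMIs), and single libraries lay between 165 and 220.0. The highest type compared, stellate cell–like, was at 96.9 on the same scale. Its single libraries ran from 67.4 to 189.7 CPM with hormone transcripts included, a range that overlaps that of the second cluster. Neither cluster was tested against the named types.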

How the results depend on the processing

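No member was called between genotypes in β cell–like cells under any alternative, and *Igf1r* was called higher in β than in all 5 types under each of them (log2 2.003 to 6.28). The *Ywhaz* difference stayed between −3.15 and −3.06. Counts of genes called for KO against WT moved more. In β cell–like cells 1 became 13 with the replicate block (*Irs2* −0.33, no member called), 7 with DESeq2 and 10 with no filter. In the other types 0 became 57 with the replicate block, 6 with DESeq2, 188 with no filter, 1 with hormone transcripts left out and 1 with no doublet calls, and 1 to 6 when each library was left out. The interaction gave 8 calls, 6 with the replicate block, 131 with no filter and 7 to 15 with each library left out (15 without WT replicate 2). Calls between types numbered 20701 (20117 to 30341). The cause of these changes was not tested. Uncalled values near 0 changed sign. Over the libraries left out in turn, KO against WT ran from −0.096 to 0.057 for *Insr*, −0.018 to 0.14 for *Igf1r*, −0.57 to 0.0016 for *Irs2*, −0.029 to 0.012 for *Pik3r1*, −0.12 to 0.043 for *Akt1* and −0.057 to 0.054 for *Akt2*. Keeping all KO cells gave *Pik3r1* 0.0057. Leaving out the gene-poor cluster, chosen after seeing the data, gave *Igf1r* −0.011 and *Akt2* −0.0026. Without TMM, β against α gave −0.35 (*Insr*) and −0.36 (*Irs2*), against δ −0.25 (*Igf2r*), −0.16 (*Irs2*) and −0.34 (*Pik3r1*), against endothelial −0.0035 (*Igf2r*) and −0.60 (*Pik3r1*), and against macrophage −0.31 (*Irs2*). *Pik3r1* against endothelial was −0.0043 with hormones left out and −0.039 to 0.078 over the libraries left out. *Irs2* against macrophage was −0.044 with hormones left out, −0.0026 with β cell RNA subtracted and −0.069 to 0.038 over the libraries left out, and against α it ran from −0.035 to 0.17 over them. *Irs2* against stellate cells passed 2-fold with β cell RNA subtracted (1.05), and so did *Akt2* with shallow-barcode RNA subtracted, an alternative chosen after seeing the data (1.07). With 3 mice per genotype, small changes in *Irs1* and in types with few cells were not detectable.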
